A study of Mus musculus with 16 samples.

Results

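The neuronal immediate early genes Fos, Fosb, Fosl2, Junb, Arc, Egr1, Egr2, Egr4, Npas4 and Nr4a1 were followed through the cortex of 16 5xFAD mice. They were chosen by name, as genes of the early transcriptional response of neurons to activity, and all 10 were found among the 47593 genes counted and passed the filter that left 16553 genes for testing. All mice were 5xFAD, in which the neuron-specific Thy1 promoter drives mutant human transgenes and amyloid plaques form from a young age, and no mouse without the transgenes was sequenced. The 4 groups, with 4 mice each, were males and females on a rapamycin or a vehicle diet. Rapamycin, an inhibitor of the kinase mTOR, or the carrier alone was given in the chow from 2 to 5 months of age. The study describes behavioural tests ahead of tissue collection, and which of the sequenced mice were tested is not given in the sources used here.

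Immediate early genes are silent or low in a resting neuron and are transcribed within minutes of synaptic activity, without the need for new protein synthesis. Calcium entry and the ERK kinase cascade act on factors already bound at their promoters, chiefly CREB at cAMP response elements and SRF with its ternary complex partners at CArG boxes. Most of the products are transcription factors that switch on later genes, and Arc instead acts at the synapse. Their messengers are short-lived.

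The libraries held between 16393501 and 20593089 counted read pairs. By the labels, 11 belong to batch 1. Batch 2 holds 5, which are replicate 4 of each group and female rapamycin 5, and the labels do not say what a batch was. Markers of glutamatergic neurons were present in every library, with a summed level of 2874 to 5551 CPM, the count scaled to the size of its library. The library labelled male rapamycin 4 had 512 CPM of Xist and 0 read pairs on 4 Y-linked genes, against at least 1915 on those genes in the other 7 male libraries, and was kept under its label. Choroid plexus markers reached a summed 1965 CPM in male vehicle 4, against a lowest value of 14.5 CPM. The comparisons by diet and sex are also given without them.

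Promoters are shown first because the genes share regulators and because one of them, Npas4, followed the others less closely. The 250 bases before the transcription start were taken from RefSeq (GRCm38.p6) for the 8 genes matched, and are printed 5′ to 3′ on the gene's own strand for 4 of them. Fos, Egr4 and Npas4 are the genes that held the sequence TGACGT, a part of the cAMP response element. The shorter TGACG, read as CGTCA on the opposite strand, was not searched and also occurs in the windows of Fosb, Junb and Nr4a1. Nr4a1 is shown as the closest companion of Arc with a match to the binding site of the EGR proteins. Capitals mark matches to TGACGT or GCGNGGGCG on either strand.
Fos promoter (chr12:85473640-85473889, plus strand): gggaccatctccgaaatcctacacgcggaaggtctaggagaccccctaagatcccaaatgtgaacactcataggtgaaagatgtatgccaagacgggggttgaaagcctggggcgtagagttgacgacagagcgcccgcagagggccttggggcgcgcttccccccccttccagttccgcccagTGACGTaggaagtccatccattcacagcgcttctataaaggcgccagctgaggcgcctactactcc
Egr4 promoter (chr6:85513590-85513839, minus strand): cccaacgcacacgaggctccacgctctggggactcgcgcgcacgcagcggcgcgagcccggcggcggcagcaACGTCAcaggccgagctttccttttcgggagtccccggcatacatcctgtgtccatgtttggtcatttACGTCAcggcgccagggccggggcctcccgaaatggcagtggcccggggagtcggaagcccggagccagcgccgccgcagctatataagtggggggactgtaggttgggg
Npas4 promoter (chr19:4989972-4990221, minus strand): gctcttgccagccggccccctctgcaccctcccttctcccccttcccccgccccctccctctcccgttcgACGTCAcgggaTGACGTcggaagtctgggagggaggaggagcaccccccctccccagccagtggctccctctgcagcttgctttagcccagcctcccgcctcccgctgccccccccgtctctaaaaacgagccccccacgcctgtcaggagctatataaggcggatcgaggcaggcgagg
Nr4a1 promoter (chr15:101266596-101266845, plus strand): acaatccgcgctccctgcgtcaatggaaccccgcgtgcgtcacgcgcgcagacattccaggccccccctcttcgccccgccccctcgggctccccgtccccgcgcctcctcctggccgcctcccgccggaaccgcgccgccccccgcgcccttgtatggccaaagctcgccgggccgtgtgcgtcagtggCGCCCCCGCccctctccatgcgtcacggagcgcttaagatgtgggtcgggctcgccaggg

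The sequence TGACGT, read as ACGTCA on the opposite strand, lay once before the start of Fos, at 66 to 61 bases. It lay at 2 places each before Egr4 and Npas4. In Npas4 both lay close together, at 180 to 175 and at 169 to 164 bases before the start, and in Egr4 at 178 to 173 and 110 to 105 bases. Thus 3 of the 8 promoters held this sequence. It was also held by 9.16% of the 15072 promoters of tested genes and 6.47% of all 32851 promoters of that length. The EGR motif GCGNGGGCG lay in the windows of Fosb, Fosl2 and Nr4a1, again 3 of 8, against 8.41% of the promoters of tested genes. An exact CArG box, CCWWWWWWGG with W for A or T, was not found in these 8 windows. It was present in 1.23% of the promoters of tested genes. Looser forms were not searched. Near matches with a G within the A or T stretch occur in the windows of Nr4a1 (ccttgtatgg) and Egr4 (ccatgtttgg). Sequence further from the start was not searched either, so SRF sites are not shown to be absent from these genes. Npas4 had TGACGT in its window, as did Fos and Egr4, whose levels across mice it followed less closely than they followed each other.

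Each gene varied several-fold between mice. Over all 16 libraries, the highest exceeded the lowest by 4.10-fold for Fosb, the smallest of these ratios, and by 14.1-fold for Egr2, the largest. Female vehicle 3 was the lowest library for 7 of the genes and male rapamycin 2 the highest for 8. The latter library also had the highest share of mitochondrial read pairs, 6.99%. Female rapamycin 2 and 1 were close to it, at 6.98% and 6.88%, and had all 10 genes below the mean of their batch. The part of this share in the levels was not tested. In bulk tissue, fewer expressing neurons and less RNA per neuron cannot be told apart, and this holds for every level given here.

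Fos (chromosome 12, 85473890 to 85477273), whose product pairs with JUN proteins to form the AP-1 factor, had 50.3, 74.3, 19.8 and 48.6 CPM in female vehicle mice and 21.1, 29.9, 57.4 and 71.2 CPM in female rapamycin mice. In males it had 32.2, 77.6, 34.2 and 29.4 CPM with vehicle and 39.9, 133, 64.0 and 27.1 CPM with rapamycin. The group ranges overlapped throughout, and 1 mouse per male group stood high, male vehicle 2 and male rapamycin 2. With both sexes in the model, the rapamycin over vehicle ratio of Fos was 1.22 (95% interval 0.720 to 2.05, adjusted p = 0.637, edgeR).

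Fosb (chromosome 7, 19302696 to 19310051), the relative that also yields the long-lived ΔFosB protein, had the smallest ratio of highest to lowest library. It had 18.7, 23.9, 12.2 and 30.6 CPM in female vehicle, 14.6, 13.98, 33.0 and 39.7 CPM in female rapamycin, 17.96, 38.8, 19.3 and 18.2 CPM in male vehicle and 27.4, 50.2, 42.8 and 21.9 CPM in male rapamycin libraries. Female rapamycin mice fell into a low pair from batch 1 and a high pair from batch 2. The diet difference was 0.38 on the log2 scale (SE 0.260, adjusted p = 0.350, edgeR).

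Fosl2 (chromosome 5, 32135801 to 32157842), which encodes the FRA-2 partner of AP-1, differed from Fos in its extremes. Its values were 43.4, 68.1, 34.4 and 75.4 CPM in female vehicle, 18.4, 32.4, 82.9 and 45.9 CPM in female rapamycin, 51.0, 102, 63.4 and 37.7 CPM in male vehicle and 66.8, 89.6, 88.0 and 57.2 CPM in male rapamycin mice. The highest level was in male vehicle 2 and the lowest in female rapamycin 1. The diet difference was -0.07 (SE 0.273, adjusted p = 0.888, edgeR).

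Junb (chromosome 8, 84976909 to 84978748), the JUN-family partner in the list, had 107, 156, 46.2 and 109 CPM in female vehicle, 88.6, 111, 102 and 152 CPM in female rapamycin, 98.5, 153, 92.4 and 84.4 CPM in male vehicle and 108, 295, 165 and 101 CPM in male rapamycin libraries. In males the rapamycin range began above 3 of the 4 vehicle values, yet male vehicle 2 lay above 2 rapamycin mice. The diet ratio of Junb was 1.33 (0.928 to 1.90, adjusted p = 0.276, edgeR).

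The EGR genes encode zinc finger factors that bind GC-rich sites in later response genes. Egr1 (chromosome 18, 34859823 to 34864984) is also expressed in the cortex without acute stimulation. It had 302, 470.2, 238 and 455 CPM in female vehicle and 192, 307, 419.8 and 402 CPM in female rapamycin mice. Male vehicle mice had 317, 634, 369 and 489.6 CPM and male rapamycin mice 321, 876, 528 and 269 CPM. The 876 CPM of male rapamycin 2 was the highest of the 16, and the library labelled male rapamycin 4, which has a female marker pattern, held the lowest value of those labelled male. The ratio between diets was 0.989 (0.698 to 1.40, adjusted p = 0.975, edgeR).

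Egr2 (chromosome 10, 67535475 to 67542188), which in glia is known as the master factor of Schwann cell myelination, had the largest ratio. Female vehicle mice had 13.5, 18.4, 3.65 and 18.9 CPM and female rapamycin mice 8.06, 6.53, 16.9 and 22.6 CPM. Male vehicle mice had 8.92, 21.2, 6.40 and 8.61 CPM and male rapamycin mice 10.4, 51.5, 22.7 and 6.75 CPM. The male rapamycin group thus contained both the top value of all mice and a value below 3 of the 4 male vehicle mice, and the diet ratio of 1.42 had an interval of 0.748 to 2.68 (adjusted p = 0.468, edgeR).

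Egr4 (chromosome 6, 85511121 to 85513589), a largely neuronal member of the family, had 52.4, 63.1, 24.6 and 55.9 CPM in female vehicle, 37.5, 45.03, 46.6 and 86.1 CPM in female rapamycin, 33.6, 67.1, 42.9 and 45.02 CPM in male vehicle and 56.9, 134, 85.0 and 37.2 CPM in male rapamycin libraries. All groups overlapped. Its adjusted p for diet, 0.269 with a ratio of 1.36 (0.927 to 1.99, edgeR), was the lowest of the 10 genes.

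Nr4a1 (chromosome 15, 101266846 to 101274792), an orphan nuclear receptor, had 103, 191, 28.9 and 211 CPM in female vehicle and 61.4, 94.2, 235 and 191 CPM in female rapamycin mice. In males it had 91.2, 243, 94.4 and 149.8 CPM with vehicle and 92.6, 330.4, 216 and 91.0 CPM with rapamycin. Male rapamycin 2 was highest and female vehicle 3 lowest, as for Fos. The diet ratio was 1.13 (0.656 to 1.95, adjusted p = 0.784, edgeR).

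Arc (chromosome 15, 74669083 to 74672570) is the effector of the list, a protein that removes AMPA receptors from the synapse and whose messenger travels into dendrites. It had 182, 410.3, 79.6 and 384 CPM in female vehicle, 150.4, 229.5, 441 and 410.0 CPM in female rapamycin, 180.3, 386, 221 and 311 CPM in male vehicle and 221, 496, 459 and 229 CPM in male rapamycin libraries. High and low mice were present in every group. Its diet ratio was 1.18 (0.768 to 1.82, adjusted p = 0.621, edgeR).

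Npas4 (chromosome 19, 4984355 to 4989971) encodes a neuron-specific factor that responds to calcium entry and regulates inhibitory synapses, and its order of mice was another. It had 21.5, 24.8, 18.8 and 34.1 CPM in female vehicle and 4.90, 9.95, 43.5 and 50.6 CPM in female rapamycin mice. In males it had 21.9985, 10.1, 18.97 and 23.0 CPM with vehicle and 18.4, 20.4, 18.6 and 18.1 CPM with rapamycin. The male rapamycin mice, whose SD was the largest of the groups for all other genes but Arc and Fosl2, were close together for Npas4, and female rapamycin mice covered the whole range. The diet ratio was 0.903 (0.597 to 1.37, adjusted p = 0.766, edgeR).

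**Figure D1:**
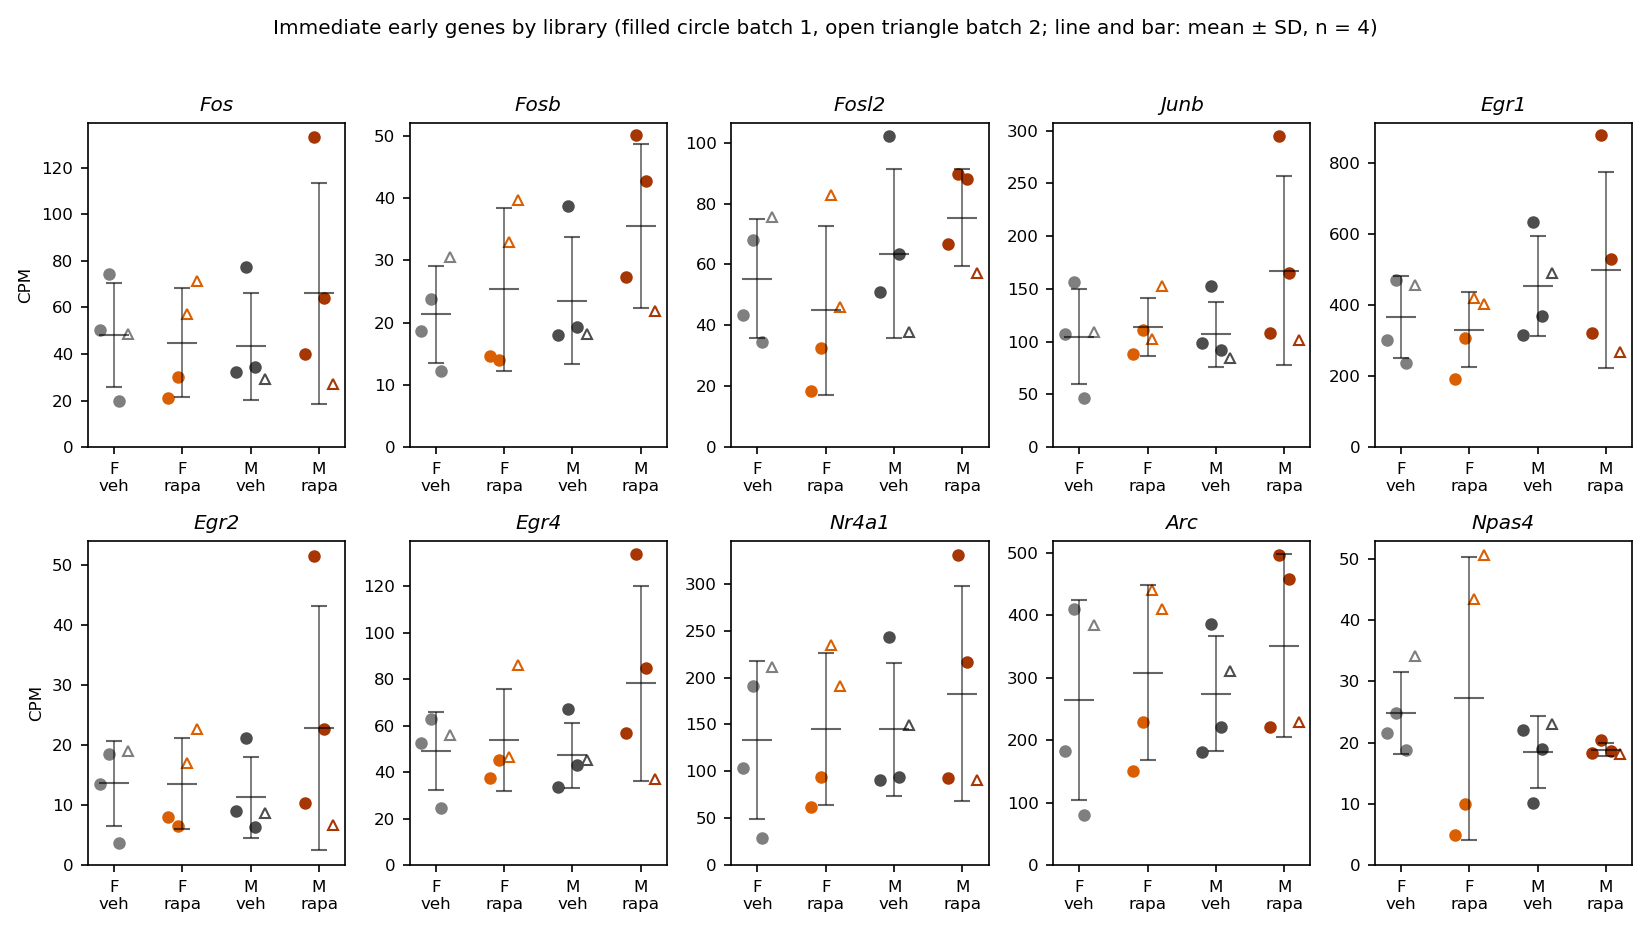
Level of each gene in CPM (vertical axis from 0, its own scale per panel) in the 16 libraries, by group (F female, M male, veh vehicle, rapa rapamycin), with filled circles for batch 1, open triangles for batch 2 and the mean ± SD of 4 mice. Male rapamycin 2 is at the top of 8 panels, at 133 CPM for Fos and 51.5 CPM for Egr2, while the 4 male rapamycin values of Npas4 lie between 18.1 and 20.4 CPM.

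Levels of different genes were compared per kilobase of exon, as the mean CPM per kilobase over 16 mice. Arc stood at 97.9 ± 41.7 (SD, n = 16), followed by Egr1 at 91.8 ± 37.8, Junb at 66.9 ± 30.1 and Nr4a1 at 61.2 ± 33.2. Egr4 at 26.6 ± 12.4 and Fos at 21.5 ± 12.4 formed a middle pair on this scale. Npas4 (6.82 ± 3.59), Fosl2 (6.18 ± 2.46), Egr2 (4.51 ± 3.41) and Fosb (4.24 ± 1.85) were lowest. Neighbours in this order differed by less than the larger SD of the pair, except Nr4a1 from Egr4 and Fos from Npas4.

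With both sexes together, diet was not associated with a called change in these genes. At an adjusted p under 0.05 in edgeR's quasi-likelihood test, 0 of 10 passed, where 13.3% of the 16553 tested genes did. At an unadjusted p under 0.05 the count was also 0, against 5039 of the 16553 genes. DESeq2 called 0 as well. With the further demand of a 1.5-fold change, 0 of 10 passed, against 2.26% of all genes. The log2 difference ran from -0.15 for Npas4 to 0.50 for Egr2, with 7 genes above 0 and a median of 0.26, where the median of all tested genes was 0.02. Standard errors were 0.239 to 0.438, against a median of 0.119 over all genes, so the intervals were wide and left room for a difference in either direction for each gene. The median rested on male rapamycin 2, without which it was -0.01, and Fos and Nr4a1 then changed sign, to -0.07 and -0.09. Without the library labelled male rapamycin 4 and male vehicle 4 the median was 0.16, with 0 genes called.

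By sex, the estimates differed in direction but not beyond their error. In females 0 of 10 genes passed (0.0121% of all genes did, DESeq2 0), with 4 estimates above 0 and a median of -0.07. At an unadjusted p under 0.05 there were 0 members, against 3818 of the 16553 genes. In males 0 of 10 passed, as did 0% of all genes, with 0 in DESeq2. There were again 0 members at an unadjusted p under 0.05, against 1990 of the 16553 genes. All 10 male estimates were above 0, with a median of 0.50, led by Egr2 at 1.03 (SE 0.598, adjusted p = 0.483, edgeR) and Egr4 at 0.73 (SE 0.364, adjusted p = 0.428, edgeR). Since the genes varied together across mice, as shown next, these 10 signs were not separate observations. Without the library labelled male rapamycin 4 and male vehicle 4, all 10 male estimates were again above 0, with a median of 0.62. Of them 0 were called (0% of all genes), but 3 genes, Fosb (0.66), Egr2 (1.21) and Egr4 (0.94), had an unadjusted p under 0.05. In females the median was then -0.31, with 0 called (0.012% of all genes) and 2 genes, Fosl2 and Npas4, at an unadjusted p under 0.05. The test of the difference between the sexes called 0 of 10 genes (0% of all genes, DESeq2 0), with an adjusted p of 0.999 for each. It had 0 of them at an unadjusted p under 0.05, against 360 of the 16553 genes. This test also called 0 without those 2 libraries (0% of all genes), with 0 of the 10 genes at an unadjusted p under 0.05. In batch 1 alone it called 0 too (0% of all genes), and 2 genes, Fosl2 (-1.11) and Npas4 (-1.72), were under that mark before adjustment. With only the library labelled male rapamycin 4 left out, all 10 male estimates were above 0, at a median of 0.79. Of them 0 were called (0% of all genes), and Fosb (0.88), Junb (0.83), Egr2 (1.44) and Egr4 (1.04) had an unadjusted p under 0.05. In females the median was then -0.22, with 0 called (2.07% of all genes) and 0 under that mark. The test of the difference called 0 (0% of all genes), with 1 gene, Egr2 (-1.69), under it. How many of all genes were under that mark in the fits on fewer libraries was not counted.

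The calls in males depended on the filter for low counts. When all 30248 genes with any count were kept, edgeR called 5 of the 10 genes in males (Fos, Fosb, Junb, Egr2 and Egr4), where 1.74% of the genes passed. It then called 2 with both sexes (Junb and Egr4, against 8.68%) and 1, Egr2, for the difference between sexes (against 0.288%). The estimates barely moved, for example from 1.03 to 1.04 for Egr2 in males, while its standard error went from 0.598 to 0.171. The counts of these genes were the same in both fits. The smaller standard errors therefore do not stand for a narrower spread between mice.

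**Figure D2:**
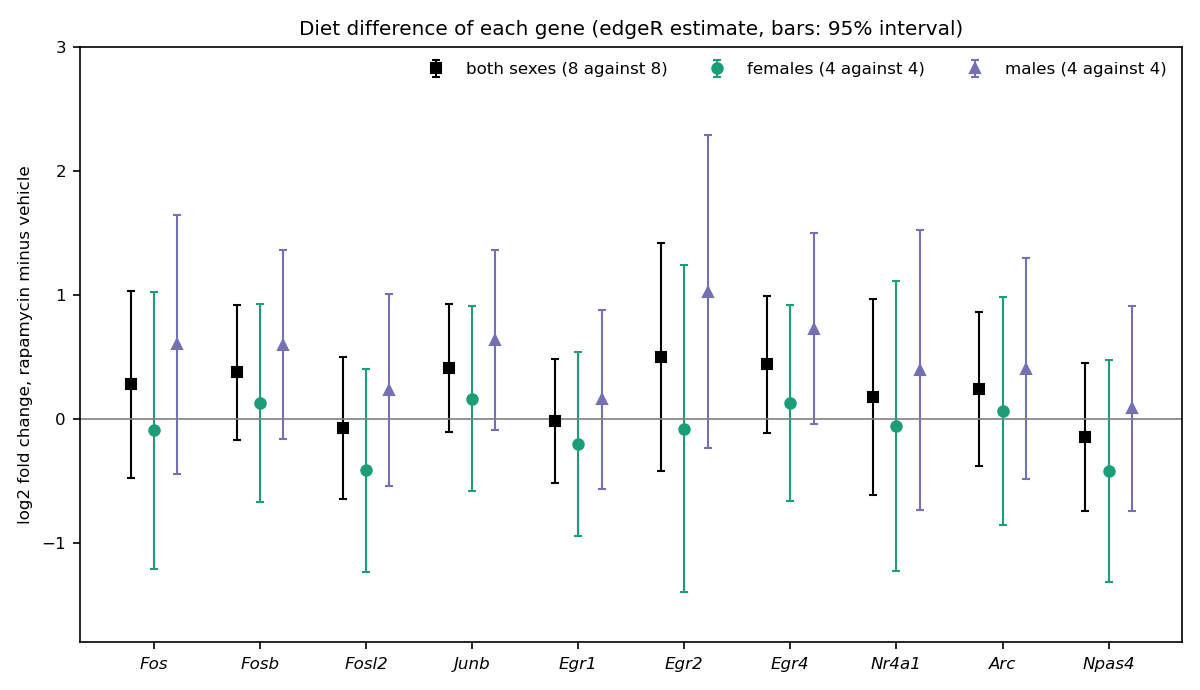
Log2 fold change of rapamycin over vehicle (vertical axis) for each gene, estimated by edgeR with both sexes (squares), in females (circles) and in males (triangles), with 95% intervals as bars. Every interval crosses 0, and the male estimates are all above 0, up to 1.03 for Egr2.

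The spread between mice was wide for each of these genes. The biological coefficient of variation, the part of the relative SD between mice that counting noise does not account for, was 0.330 for Egr1, 0.335 for Junb, 0.351 for Fosb, 0.356 for Egr4 and 0.365 for Fosl2. It was 0.377 for Npas4, 0.402 for Arc, 0.474 for Fos, 0.503 for Nr4a1 and 0.576 for Egr2, beside a median of 0.164 over all tested genes. Because low counts raise this measure, each gene was also set beside the genes within 0.5 log2 CPM of its own level. There the 10 genes lay at percentiles 98.9 (Fosb) to 100 (Arc, the highest of 681 genes).

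**Figure D3:**
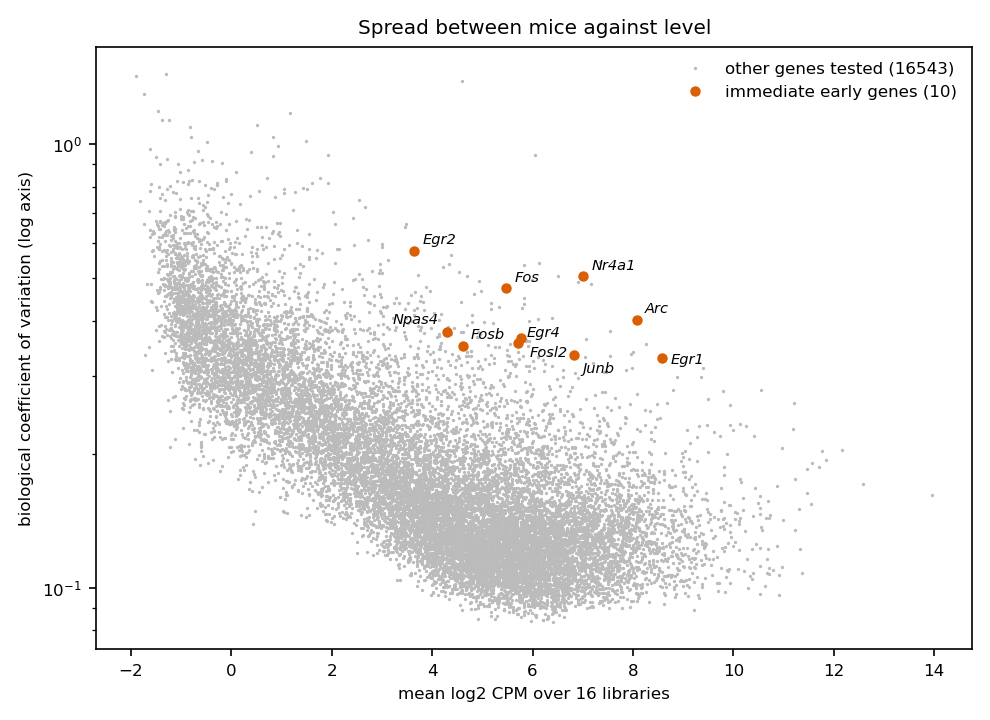
Biological coefficient of variation (vertical log axis) against mean log2 CPM over 16 libraries (horizontal axis), with 1 small point for each of the 16543 other genes tested and 1 orange point for each immediate early gene. The 10 genes lie between 0.330 and 0.576, along the upper edge of the cloud at their levels.

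Across mice, 9 of the genes varied together. Correlations were taken over log2 CPM with batch means removed, and describe 16 libraries that share batches, depths and normalization. Among the 36 pairs without Npas4, Pearson's r was between 0.57 (Fosl2 and Egr4) and 0.98 (Nr4a1 and Arc), with a median of 0.87 and a median Spearman's rho of 0.85. The median r was 0.90 when group means were removed as well, 0.90 in the 11 libraries of batch 1, and 0.80 without male rapamycin 2 and female vehicle 3, the ends of the range. Fos and Egr2 (0.95) and Junb and Egr4 (0.94) followed Nr4a1 and Arc, while Fosl2 was the loosest of the 9. A single gene's median absolute r with all other genes tested was between 0.18 and 0.28.

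Npas4 followed the others less closely. Its 9 correlations ran from 0.23 (Junb) to 0.51 (Fosl2), with a median of 0.36, which was 0.41 with group means removed, 0.21 in batch 1 and 0.43 without both ends. That these values are below those of the 36 pairs was not tested. Some mice departed from the order of the other genes. In male vehicle 2 all 9 other genes lay above the batch mean, at an average of 1.05 SD, while Npas4 lay 0.64 log2 units below its own batch mean. In female vehicle 3 all 9 lay below, at -1.75 SD, and Npas4 lay 0.26 above. In female rapamycin 1 and 2, and in the library labelled male rapamycin 4, all 10 genes lay below.

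**Figure D4:**
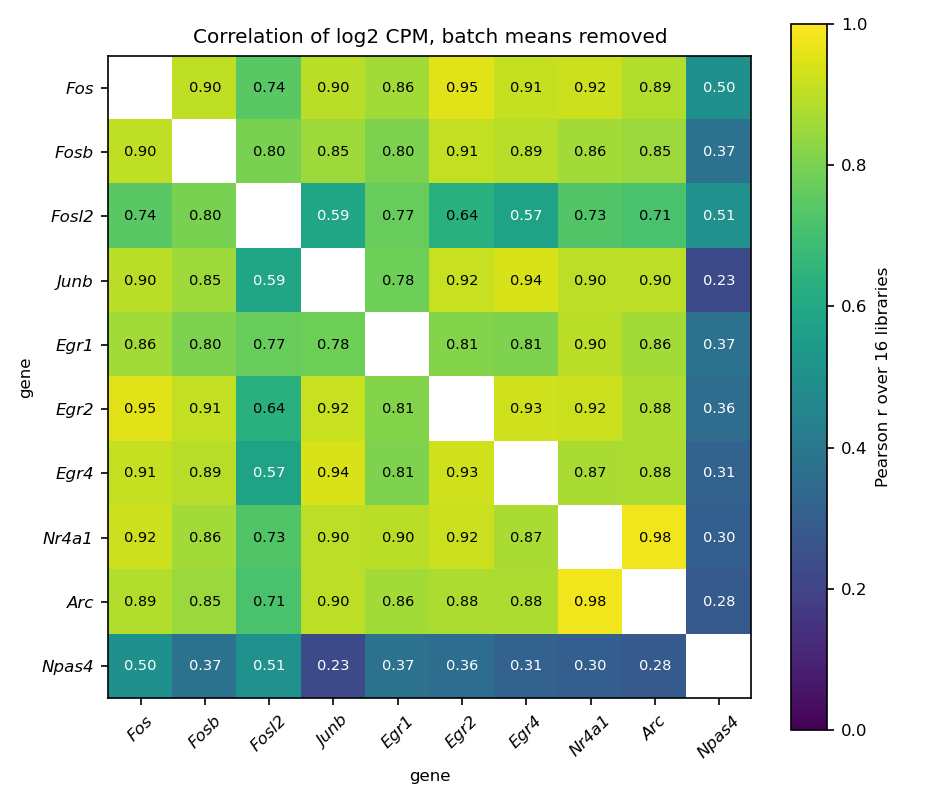
Pearson's r of log2 CPM between each pair of the 10 genes over 16 libraries, with batch means removed (colour scale from 0 to 1, values printed, diagonal left blank). The 36 pairs among 9 genes reach from 0.57 to 0.98, and the row of Npas4 reaches from 0.23 to 0.51.

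**Figure D5:**
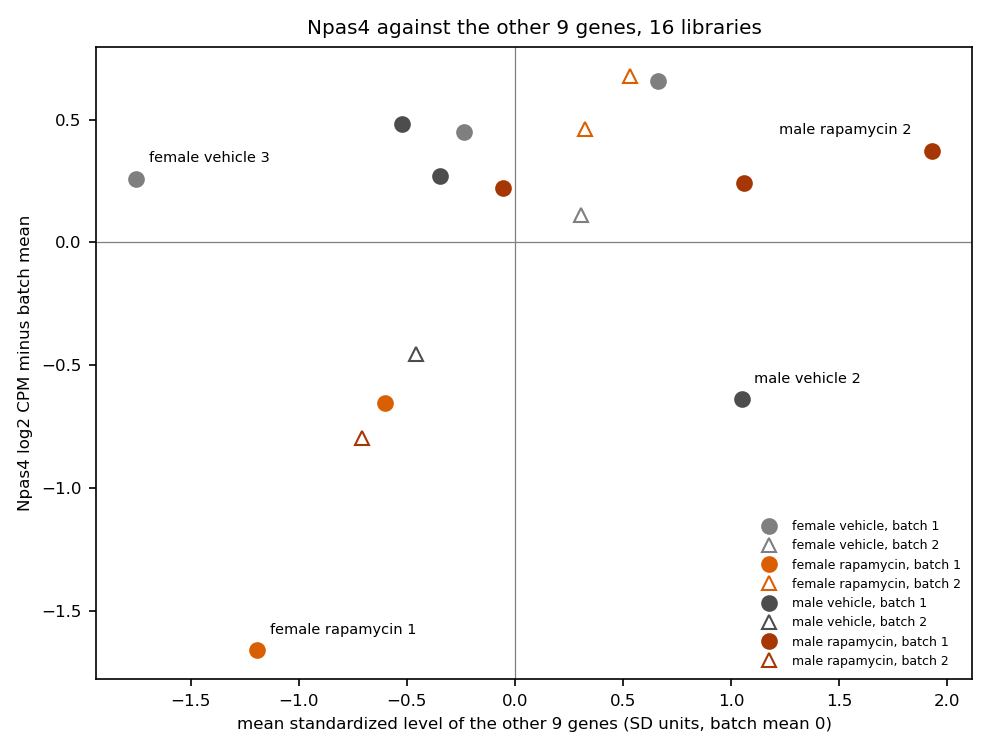
Npas4, as log2 CPM minus the mean of its batch (vertical axis), against the mean standardized level of the other 9 genes (horizontal axis, SD units), 1 point per library coloured by group, with open triangles for batch 2. Male vehicle 2 lies at 1.05 SD and -0.64, and female vehicle 3 at -1.75 SD and 0.26.

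Npas4 was also the one gene called between batches. It was 1.96-fold higher in batch 2 (log2 difference 0.97, SE 0.310, adjusted p = 0.0219, edgeR), at 33.9 ± 13.6 CPM (SD, n = 5) against 17.1 ± 6.11 CPM (SD, n = 11). That is 1 of 10 genes, where 35.5% of all tested genes were called, and DESeq2 also called 1. The call was lost without female rapamycin 2 (adjusted p = 0.0525, edgeR) or without female rapamycin 4 (0.0509). Without the library labelled male rapamycin 4 and male vehicle 4 there were 3 calls, Fosb, Fosl2 and Npas4, against 29.3% of all genes.

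The diet values of Npas4 in the mice labelled female went in opposite directions in the batches. In batch 1 the rapamycin mice had 4.90 and 9.95 CPM and the vehicle mice 18.8, 21.5 and 24.8 CPM. These 2 rapamycin libraries also differed from the 3 vehicle libraries in their share of mitochondrial read pairs, at 6.88% and 6.98% against 3.85% to 5.47%, and in their exon length slope, which measures how expression followed exon length, at -0.121 and -0.128 against 0.00095 to 0.0751. Male rapamycin 2, also of batch 1, had 6.99% and a slope of -0.123, with 20.4 CPM of Npas4. The part of these measures in the Npas4 difference was not tested. In batch 2 the rapamycin mice had 43.5 and 50.6 CPM, above the 34.1 CPM of the only vehicle mouse. The library labelled male rapamycin 4, also of batch 2 and with a female marker pattern, had 18.1 CPM, below that vehicle mouse. Fitted on batch 1 alone, Npas4 was lower with rapamycin in females by a log2 difference of -1.55 (SE 0.328, adjusted p = 0.0253, edgeR), the 1 call among the 10 genes where 7.75% of all genes were called. Leaving out each of the 11 libraries in turn gave differences from -2.14 to -1.12. Both ends came from fits that left 1 female rapamycin mouse, without female rapamycin 2 and 1 in that order. Of the other fits, the call was lost without female vehicle 1 (-1.56, adjusted p = 0.0551, edgeR) or female vehicle 3 (-1.64, adjusted p = 0.0837, edgeR). Those fits called 12 of 16568 and 1 of 16552 genes. The fits that kept the Npas4 call had 577 to 2880 genes called, so its loss came with a loss of calls among all genes. Batch 2 had too few females for a test of its own, and whether the female difference varied by batch was not tested.

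Between the sexes, 0 of 10 genes were called (0.0302% of all genes were, DESeq2 0). At an unadjusted p under 0.05 there were 0 members, against 992 of the 16553 genes. The estimates were lower in females for 9 genes, from -0.15 for Fos to -0.55 for Fosl2, and 0.17 higher for Npas4. The intervals of all 10 crossed 0. Without the library labelled male rapamycin 4 and male vehicle 4, 0 of the 10 genes were called (0.0658% of all genes). All 10 estimates were then lower in females, of which Fosb (-0.91), Fosl2 (-1.04) and Egr1 (-0.75) had an unadjusted p under 0.05. With only the library labelled male rapamycin 4 left out, 0 were called (0.0415% of all genes) and 1 estimate, Npas4 (0.03), was above 0. Fosb (-0.59), Fosl2 (-0.65) and Egr1 (-0.63) had an unadjusted p under 0.05 in that fit.

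The genes outside the list whose profile was most like the mean of the 10, by Pearson's r over the 16 libraries with batch means removed, were led by Dusp1 (0.95), a phosphatase that switches off MAP kinases, and Sik1 (0.92), a CREB-pathway kinase. Dusp6 (0.90), the ERK phosphatase, Trib1 (0.89), a pseudokinase, Sh2d3c (0.86), a signalling adaptor, Ier2 (0.84), itself an immediate early gene, Phf13 (0.84), a reader of histone methylation, and Vwf (0.83), the endothelial von Willebrand factor, followed. Without both ends of the range these values were 0.70 (Phf13) to 0.94 (Dusp1). Dusp1 itself ran from 24.5 CPM in female vehicle 3 to 106 CPM in male rapamycin 2. In all, 14 genes beside the members reached an r of 0.8, and the median absolute r of all genes was 0.19.

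The wider pathway was described with 4 lists, each to be read against the 13.3% of all tested genes that were called for diet. Of 24 rapid relatives of the immediate early genes, 1 was called higher with rapamycin, Jund (log2 difference 0.32, SE 0.0921, adjusted p = 0.0309, edgeR), a JUN family member with steady expression. That is 1 of 24, below the 13.3%. The next by p, Klf2 (0.67, adjusted p = 0.0793), Gadd45b (0.45, adjusted p = 0.0842) and Klf6 (-0.20, adjusted p = 0.254), did not pass. The list median was 0.16. Its summed level followed the 10 genes (r = 0.87, n = 16), from 633 CPM in female vehicle 3 to 1372 CPM in male rapamycin 2, and 17 of its 24 genes reached an r of 0.5 with their mean. Jund's call was lost in 7 of the 16 fits that left out 1 library, namely those without female vehicle 4, female rapamycin 1, 2 or 5, male vehicle 1 or 4, or male rapamycin 2.

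Of 17 activity-regulated effectors, the later genes of the same response, 1 was lower, Pcsk1 (-0.72, SE 0.218, adjusted p = 0.0391, edgeR), a protease that matures neuropeptides. This share of 1 in 17 was also below the 13.3%. Tiparp (0.37, adjusted p = 0.105), Rgs2 (0.24, adjusted p = 0.144) and Inhba (-0.69, adjusted p = 0.207) did not pass, and the median was 0.09. The summed level had an r of 0.55 with the 10 genes. Pcsk1's call was lost in 11 of the 16 fits that left out 1 library, all but those without female rapamycin 4, male vehicle 1 or 4, or male rapamycin 1 or 3. Of 9 feedback inhibitors of ERK signalling, 0 were called by edgeR or by DESeq2, and their summed level had an r of 0.62. At an unadjusted p under 0.05 there were 0 of them, against 5039 of the 16553 genes.

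Of 26 kinases and factors that act upstream, 1 was called higher and 4 lower, a share of 5 in 26 beside the 13.3% of all genes, with a median of -0.09. Ep300, a histone acetyltransferase that works with CREB, was lower by -0.54 (SE 0.116, adjusted p = 0.0140, edgeR). Camk4 (-0.47, adjusted p = 0.0211), a nuclear calcium-dependent kinase for CREB, Rps6ka3 (-0.33, adjusted p = 0.0274), a kinase below ERK, and Mef2d (-0.22, adjusted p = 0.0486) were lower too, and Map2k2 (0.25, adjusted p = 0.0328), the MEK2 kinase, was higher. Ep300 kept its call in all 16 fits that left out 1 library. Camk4 lost it without female rapamycin 1 or male vehicle 4, and Rps6ka3 without either of those or female rapamycin 2. The call of Map2k2 held without female rapamycin 4, male vehicle 2 or 3, or male rapamycin 1 or 3 and was lost in the other 11 fits. That of Mef2d held without female rapamycin 4 or male rapamycin 1 or 3 and was lost in the other 13. With the mitochondrial share or the exon length slope of the library as a covariate, 0 of these 5 calls held. The mitochondrial share left the log2 difference of Camk4 at -0.49 and took that of Ep300 to -0.36, and the slope took them to -0.21 and -0.11. The summed level of these 26 genes had an r of 0.15 with the 10 genes.

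Cell type and state markers were set beside the levels of the 10 genes. Microglial markers were lowest in male rapamycin 2, the library highest in immediate early genes, at a summed 247 CPM, and ranged from 373 to 596 CPM with vehicle and from 247 to 495 CPM with rapamycin. Their summed level had an r of -0.51 with the mean of the 10 genes (n = 16), and 0 of the 7 markers were called for diet by edgeR. At an unadjusted p under 0.05 there were 2 of them, against 5039 of the 16553 genes. Male rapamycin 2 was also the highest library for the summed markers of glutamatergic (5551 CPM) and GABAergic neurons (1035 CPM), and the lowest for astrocytes (3182 CPM). Its oligodendrocyte markers, at 6516 CPM, were at neither end of their range. The part of these markers in the spread was not tested. The r of glutamatergic neuron markers was 0.20, of GABAergic neuron markers 0.30 and of endothelial markers 0.24, and astrocytes, oligodendrocytes, choroid plexus, striatum, dentate gyrus and blood gave values from -0.19 to 0.14. Glucocorticoid response genes, of which Sult1a1 (0.99), Tsc22d3 (0.70) and Plin4 (1.34) were called higher with rapamycin among 7 (13.3% of all genes were called in either direction), had an r of 0.34, heat shock genes -0.02 and circadian clock outputs 0.05. Of 7 choroid plexus markers, Kcnj13 (-1.52), Aqp1 (-1.73) and F5 (-1.68), named after their values were seen, were called lower with rapamycin, again beside 13.3%. Without the library labelled male rapamycin 4 and male vehicle 4, these 3 stood at -1.07, -0.67 and -0.55 and did not pass. The total count had an r of -0.37 with the mean of the 10 genes, and the mitochondrial share, which ranged from 2.64% to 6.99%, of -0.21.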

How the data were processed

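The authors trimmed the reads with Trimmomatic 0.39, aligned them to GRCm38 (mm10) with HISAT2 2.2.1 and made the deposited counts, which are read pairs per gene on Ensembl exons, with featureCounts 2.0.3, without strand and without normalization. Reads were therefore assigned without regard to strand, so those from overlapping genes on opposite strands are not told apart. The same counts, deposited again in 4 group tables, had 0 differing cells. Counts were scaled with TMM factors in edgeR 4.0.16 (R 4.3.3), filtered by filterByExpr (minimum count 10) and tested by the quasi-likelihood method, with terms for diet, sex and batch or for the 4 groups and batch. Adjusted p values are Benjamini-Hochberg values over all genes tested in the fit. These were 16553 with all libraries and the filter, 16644 in batch 1 alone and 30248 without the filter, and other fits on fewer libraries had their own number. DESeq2 1.42.0 was the alternative test. CPM use TMM factors, and log2 CPM a prior count of 2. In simulated counts the tests recovered known changes in randomly drawn genes, which does not measure their power for genes as variable as these. Named genes are the 10 members, up to 4 genes of each pathway list by p, the 8 genes most like the members, and Mef2d, chosen after its value was seen. The members and lists were chosen with earlier results of these data known. Libraries of a group differed by more than counting noise (lowest chi-square per degree of freedom 11.5). The labels call them biological replicates, and p values measure the spread between them.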

Additional observations from a re-analysis of the deposited data

Results flagged for a closer look

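The lowest and highest library of each group of 4 was compared with its nearest neighbour by Dixon's ratio, the gap divided by the range of the group, for 40 combinations of gene and group. In 3 of them the ratio exceeded the 95% critical value, and chance gives about 1 in 20. All 3 concerned male vehicle 2, with 77.6 CPM of Fos where the next mouse of the group had 34.2 CPM, 38.8 CPM of Fosb where the next had 19.3 CPM, and 21.2 CPM of Egr2 where the next had 8.92 CPM. Since these genes varied together, the 3 are not separate observations. Male rapamycin 2 was not set apart by this measure, as male rapamycin 3 was also high. For Npas4, at 10.1 CPM, male vehicle 2 was the lowest of its group.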

How the results depend on the processing

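For the diet difference of the 10 genes, 78 of 90 combinations of gene and alternative kept the direction and the side of the threshold, 10 changed sign and 2 passed the threshold. Without the filter on low counts 2 genes were called for diet (Egr4, adjusted p = 0.0212, and Junb, 0.0263, edgeR), 5 in males (lowest adjusted p 7.34e-07) and 1 for the difference between sexes (0.00712). These calls came with smaller standard errors on the same counts. In females of batch 1 alone 1 gene was called. Between batches the count of 1 became 0 with a library's mitochondrial share or its exon length slope (how expression followed exon length) as a covariate, 3 without the library labelled male rapamycin 4 and male vehicle 4 (chosen after seeing the data), and 0 to 1 on leaving out 1 library. The causes were not tested. With the slope the log2 diet difference turned to -0.044 for Fos, 0.28 for Fosl2, -0.070 for Junb, 0.18 for Npas4, -0.0023 for Nr4a1, -0.0053 for Map2k2 and 0.017 for Pcsk1. With the mitochondrial share it turned to 0.051 for Egr1, 0.37 for Fosl2 and 0.20 for Npas4, without the batch term to 0.082 for Npas4, and in batch 1 alone to 0.034 for Egr1. On leaving out 1 library the difference ran from -0.073 to 0.47 for Fos, -0.29 to 0.11 for Fosl2, -0.25 to 0.093 for Egr1, -0.30 to 0.067 for Npas4 and -0.093 to 0.37 for Nr4a1, and the median of the 10 genes from -0.013 to 0.42. The labels share replicate numbers across groups, but not every same-numbered pair had a correlation over 0.1 (18 of 21 did, and the range was -0.16 to 0.67), so the numbers were not taken as pairing mice. With a replicate block in the model 0 of the 10 genes were called for diet (both sexes, females, males, or the interaction of sex and diet) or between the sexes. There were 4 mice per group, and the lowest count of any of these genes in a library was 67 read pairs, on Egr2. The parts of depth and of the spread between mice in the width of the intervals were not tested.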
